A study of Homo sapiens with 12 samples.

Results

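Circulating B cells leave and enter lymphoid tissue, and settle in its compartments, under the control of a small set of receptors coupled to G proteins and of the transcription factors that set their levels. Sphingosine-1-phosphate (S1P), which is abundant in blood and lymph, draws cells out through its receptor S1PR1, whereas S1PR2 and P2RY8 hold germinal centre B cells in place through the G protein subunit Gα13. CXCR5 guides cells to follicles, CCR7 to the T cell zone, GPR183 (EBI2) to the outer follicle along oxysterol gradients, and CXCR4 to stromal cells of the dark zone and bone marrow. KLF2, a zinc finger transcription factor, keeps lymphocytes quiescent and is a known activator of S1PR1. These 9 genes, KLF2, S1PR1, S1PR2, S1PR4, CXCR4, CXCR5, CCR7, GPR183 and P2RY8, were chosen by name, and all 9 were found among the 58884 genes of the count table by their Ensembl identifiers.

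RNA was sequenced from U2932 and TMD8, which are established cell lines of diffuse large B cell lymphoma (DLBCL) that the labels give as wild type (WT). Cells received 20 µg/mL of rituximab (R), ofatumumab (OF) or a human IgG1 isotype control for 4 h, with 2 libraries for each of the 6 conditions. R and OF are antibodies against different epitopes of CD20, the B cell surface protein encoded by MS4A1. The 2 replicates of a cell line were cultures of that line kept apart for a week, and the replicate number was taken to mark the culture. Replicate error here is that between 2 cultures of 1 line, and neither antibody was followed beyond 1 time point. RNA came from whole cultures, so fewer cells with a transcript and less transcript per cell cannot be told apart.

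Total counts ranged from 15440226 to 27110612 per library. All 6 defining B cell markers had counts in every condition. Their summed level, in counts scaled to library size (CPM), was 1872 to 1893 with isotype and 2791 to 2999 with R or OF in U2932, and 2436 to 2458 and 3158 to 3642.5 in TMD8. Summed NK cell markers reached 0.137 CPM, myeloid markers 1.42 CPM and fibroblast markers 5.75 CPM. Of 5 T cell markers, CD3D, CD3G and CD2 had no count in U2932, but TRAC had 115 to 202 counts per library there. OF replicate 2 and isotype replicate 2 of TMD8 stood apart, with 7.16% and 6.50% of counts on ribosomal protein genes against 10.0% to 10.8% in the other 4 TMD8 libraries, and with 3.73% and 3.99% on mitochondrial genes against 5.70% to 6.23%. Calls in TMD8 among the members and the genes around them are therefore also given as log2 values without both of them. There isotype and OF have 1 library each in TMD8, whose spread is taken from the other libraries fitted (in a fit of TMD8 alone, the 2 R libraries), so no call is read from those values. MS4A1, the target of both antibodies, rose in U2932 with R (log2 fold change 0.77) and with OF (0.67), and its changes in TMD8, of 0.94 and 0.61, were not called (edgeR's adjusted p = 0.188 and 0.384).

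The upstream 250 bases of the 3 members on which most of the results below turn were read from RefSeq's promoter table (GRCh38.p14), which had an entry for 8 of the 9 members. They are shown because the members differ in base composition. A correction for composition that moved a KLF2 value given below used the transcripts, not these upstream bases. In each run, capitals mark CACCC on either strand, the core bound by KLF proteins, and in KLF2 the MEF2 core (CTA, then 4 free bases, then TAG), bound by MEF2 proteins, which are known activators of KLF2. The runs stop before any annotated exon, and that of CXCR5 lies before RefSeq's start, inside the longer span that GENCODE gives the gene.
KLF2, chr19:16324576-16324816, plus strand: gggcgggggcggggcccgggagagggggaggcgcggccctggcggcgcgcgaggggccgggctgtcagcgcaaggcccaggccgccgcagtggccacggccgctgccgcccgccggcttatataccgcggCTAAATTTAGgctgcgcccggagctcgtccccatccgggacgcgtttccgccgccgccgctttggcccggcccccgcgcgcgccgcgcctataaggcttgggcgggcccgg
CXCR5, chr11:118893142-118893391, plus strand: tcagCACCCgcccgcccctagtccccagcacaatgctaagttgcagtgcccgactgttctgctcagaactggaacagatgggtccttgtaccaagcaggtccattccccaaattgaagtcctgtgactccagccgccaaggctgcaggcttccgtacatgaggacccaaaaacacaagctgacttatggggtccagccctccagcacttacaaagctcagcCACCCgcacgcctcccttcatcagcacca
GPR183, chr13:99307406-99307649, minus strand: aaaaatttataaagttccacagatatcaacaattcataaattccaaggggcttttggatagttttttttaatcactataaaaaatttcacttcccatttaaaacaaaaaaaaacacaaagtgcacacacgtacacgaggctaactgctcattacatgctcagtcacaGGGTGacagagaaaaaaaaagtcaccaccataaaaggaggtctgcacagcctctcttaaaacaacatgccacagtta

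KLF2 was the only member whose 250 bases held the MEF2 core, which occurred in 2.33% of the 34961 promoters of the table, and its window was 80.0% G and C. CACCC occurred in 54.8% of all promoters and is common. It was found 0 times before KLF2 and P2RY8, once before GPR183, and 2 to 6 times before the other members with an entry. The forkhead core GTAAACA, bound by FOXO proteins, occurred in 2.98% of promoters and before none of the 8 members. These matches describe letters only.

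In GENCODE 29 (GRCh38), KLF2 lies on the plus strand at chr19:16324817-16327874 with 3 exons, and CXCR5 on the plus strand at chr11:118883766-118897799 with 2. CCR7 lies on the minus strand at chr17:40553769-40565472 with 3 exons, and GPR183 on the minus strand at chr13:99294530-99307405 with 2, inside the span of UBAC2 on the other strand but sharing 0 exon bases with it. Composition also differed over the transcripts. The longest transcript was 65.2% G and C in KLF2, 67.9% in S1PR4 and 58.2% in CXCR5, but 43.9% in CXCR4 and 37.9% in GPR183, around a median of 48.1% over the genes tested in U2932. CXCR5 shares 3925 of its exon bases, or 88.6%, with BCL9L on the opposite strand. How counting treated the strand is not given in the sources used here. Of 492 genes whose exon bases all lie in exons of an opposite-strand gene, 39 had a median of 10 or more counts, with a largest median of 1018.5, whereas none of 463 genes wholly inside a same-strand gene did, with a largest median of 5.5. The counts therefore look separated by strand for these genes, and the BCL9L values are given beside those of CXCR5. S1PR2 shares 83 bases, or 2.28%, with DNMT1 on its own strand, and how reads over those bases were counted was not tested.

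Under the isotype control, the cell lines held the same genes at different levels. Per kilobase of the longest transcript, CXCR5 was the highest member in U2932 at 100 ± 7.48 CPM per kb (SD, n = 2), followed by CXCR4 at 87.0 ± 4.67, P2RY8 at 34.0 ± 3.22, S1PR2 at 10.5 ± 0.551, CCR7 at 6.70 ± 0.214, GPR183 at 5.35 ± 0.171 and S1PR1 at 3.44 ± 0.460. The 2 libraries of each of these genes did not overlap with those of the next gene in this order. In TMD8, CXCR4 led at 130 ± 21.6 CPM per kb, followed by GPR183 at 40.7 ± 13.7, P2RY8 at 34.7 ± 10.96, S1PR1 at 24.9 ± 2.92, CCR7 at 23.3 ± 6.34, CXCR5 at 20.2 ± 4.88, KLF2 at 15.7 ± 0.283 and S1PR2 at 7.07 ± 1.69. From GPR183 down to CXCR5, each gene's 2 libraries overlapped with those of its neighbour, so the order among these 5 genes is not set by these data. It also depends on the length used, since with the median transcript length P2RY8 stood at 63.4 and KLF2 at 24.6 CPM per kb in TMD8. S1PR4, an S1P receptor of hematopoietic cells, had 1 to 8 counts in every library and was not tested. The plot of levels by library gives all values that follow.

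**Figure D1:**
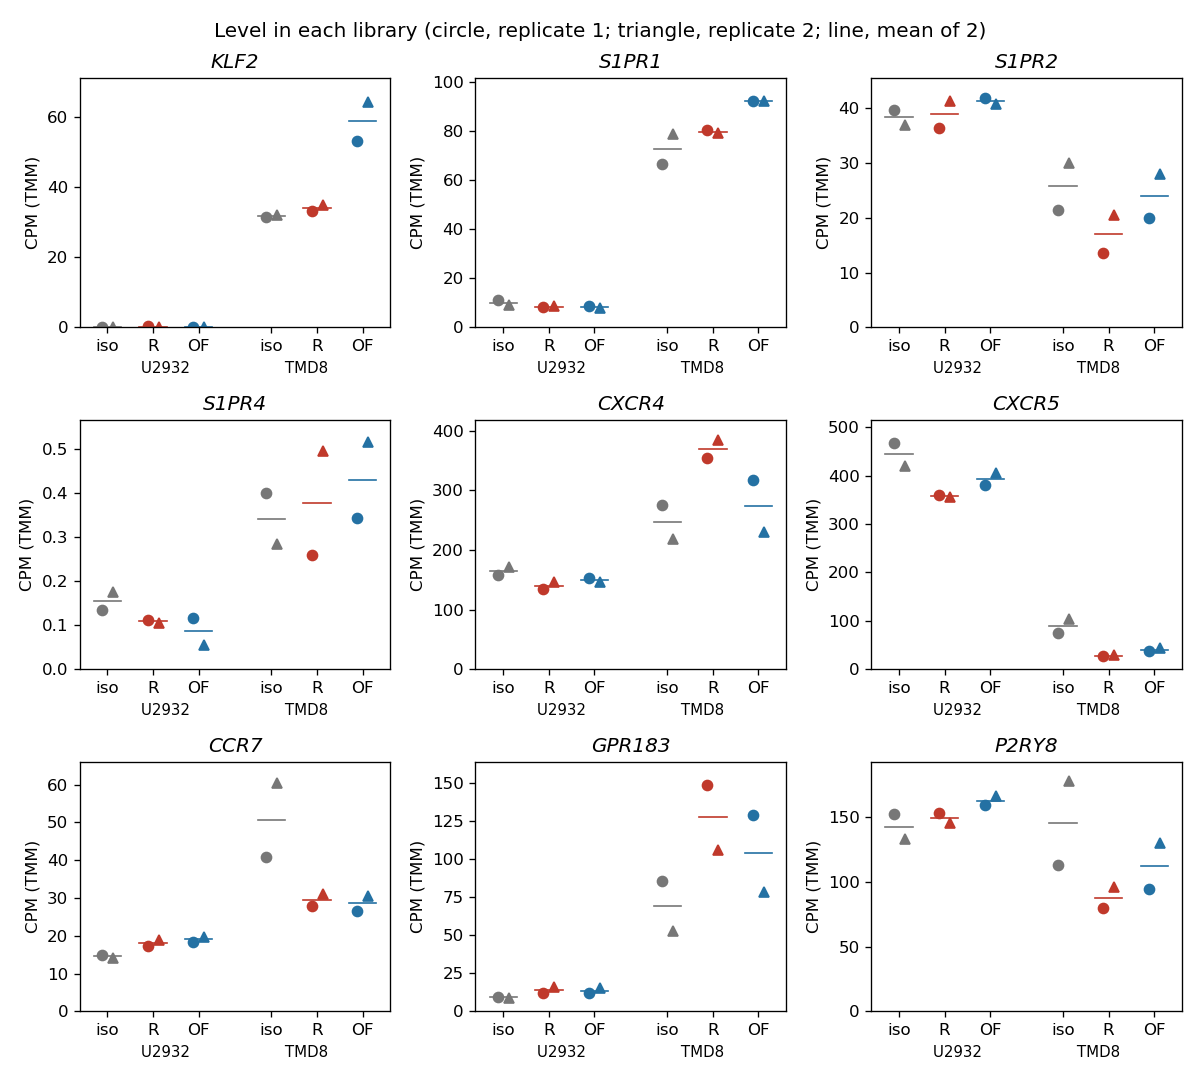
TMM-normalized CPM (vertical axis, linear from 0, a different scale in each panel) of the 9 genes in the 12 libraries, with circles for replicate 1, triangles for replicate 2 and lines for the mean of 2. KLF2, S1PR1, CCR7 and GPR183 sit higher in every TMD8 library than in any U2932 library, as does CXCR4, while CXCR5 and S1PR2 sit lower.

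Between the cell lines under isotype, 5 of the 8 members tested were called, 4 lower and 1 higher in U2932, where 56.1% of all genes were called (28.1% higher and 28% lower in U2932). To be called, a gene had to differ 1.5-fold or more and to have an adjusted p (edgeR, quasi-likelihood) under 0.10. KLF2, 1 of the 4 called lower, passed the filter only through its TMD8 counts, so its call is not read as a result. It was nearly without reads in U2932, with 2 and 0 counts under isotype against 549 and 906 in TMD8. Relative to TMM-scaled library sizes, the summed counts were 720-fold higher in TMD8 (95% exact interval 199 to 5947, counting error only). S1PR1, the egress receptor downstream of KLF2, stood at 10.95 and 9.06 CPM in U2932 and at 66.5 and 78.5 CPM in TMD8, a log2 difference of −2.86 ± 0.14 (SE; adjusted p = 2.15e-08). GPR183 differed by −2.92 ± 0.30 (adjusted p = 7.27e-06) and CCR7 by −1.80 ± 0.18 (adjusted p = 5.14e-06). CXCR5 went the other way, at 467 and 421 CPM in U2932 and 74.1 and 105 CPM in TMD8, a log2 difference of 2.31 ± 0.17 (adjusted p = 3.64e-07).

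The receptors that hold B cells in place differed less between the lines. S1PR2 stood at 39.7 and 36.9 CPM in U2932 and at 21.4 and 30.1 CPM in TMD8, 0.57 higher on the log2 scale (adjusted p = 0.0415), just under the fold limit, and by 0.84 without the 2 TMD8 libraries that stood apart. P2RY8, at 152 and 133 CPM in U2932 and at 113 and 178 CPM in TMD8, differed by −0.03 (95% interval −0.49 to 0.43), and the 2 lines overlapped. Without isotype replicate 2 of TMD8, its difference was 0.33. CXCR4 was lower in U2932 by −0.58 (adjusted p = 0.0102), also just under the fold limit, and by −0.74 without the 2 libraries. Each of the 5 calls between the lines held in every alternative that tested the gene. That of KLF2 is not read, since it passed the filter of the main fit through TMD8 alone.

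The first antibody question was whether KLF2 moved. In U2932 it had 0 to 4 counts in each of the 6 libraries, too few for a test. In TMD8, KLF2 stood at 31.3 and 32.1 CPM with isotype, at 33.1 and 34.8 with R, and at 53.2 and 64.4 with OF. Both OF libraries lay above the other 4, while R and isotype lay close together. OF with isotype gave a log2 fold change of 0.90 ± 0.16 (adjusted p = 0.101), just outside the limit on p, and the fit with culture as a block called it (adjusted p = 0.00852). Without the 2 libraries that stood apart it was 0.75. R with isotype gave 0.11 (95% interval −0.27 to 0.48).

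R with OF in TMD8 gave −0.79 ± 0.16 for KLF2 (unadjusted p = 0.00175, adjusted p = 0.733). Within cultures, the log2 ratio of R to OF was −0.68 in culture 1 and −0.88 in culture 2. With a correction for the G and C content of transcripts it was −0.39 (adjusted p = 0.965), and without OF replicate 2 and isotype replicate 2 it was −0.65. The study named KLF2 from this same comparison of these same libraries, so its direction here is not independent evidence. No member was called between R and OF in TMD8, where edgeR called 0% of all genes (582 genes at an unadjusted p under 0.05) and DESeq2 0 genes. Both counts also required a 1.5-fold difference. They differ from the study, which reported genes past its limit in this comparison, and the reason was not tested. At an unadjusted p under 0.05, 2 of 8 members passed, KLF2 and CXCR5. In U2932, 0 of 7 members were called between R and OF by edgeR or DESeq2 (0.00683% of all genes by edgeR). There 0 members passed edgeR's unadjusted p under 0.05, beside 747 of all 14635 genes tested.

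**Figure D2:**
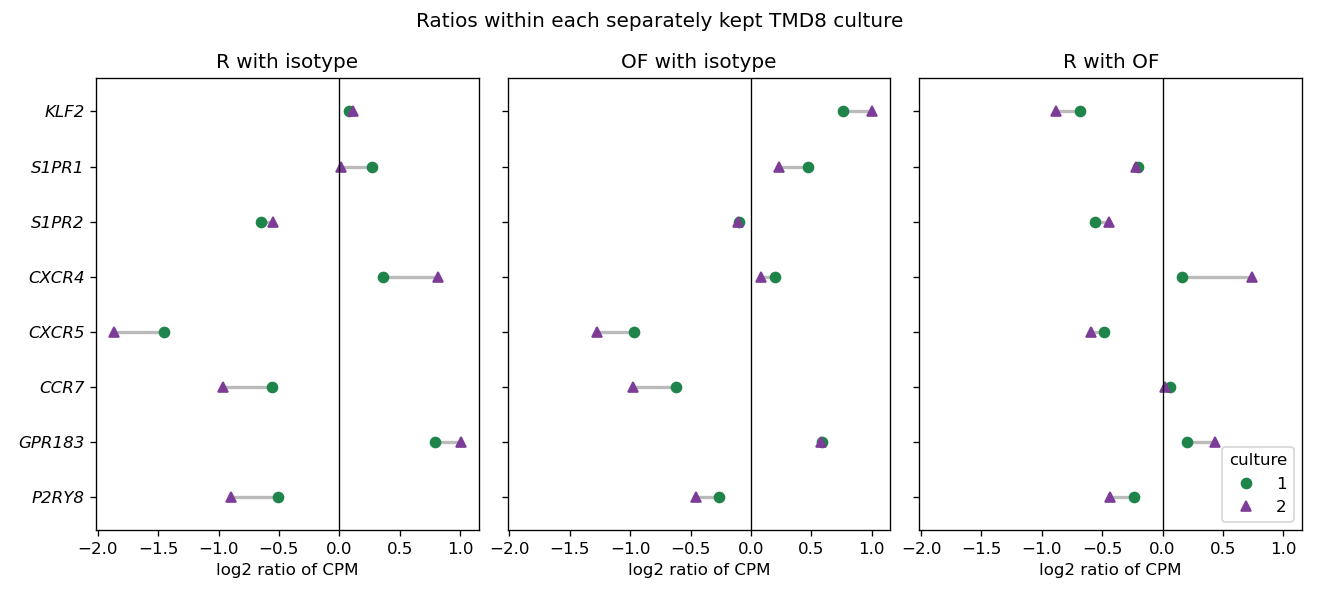
Log2 ratios of CPM between TMD8 libraries of the same replicate number, which was taken to mark the culture, for the 8 genes tested there. Circles give culture 1, triangles culture 2 and grey lines their distance. CXCR5 lies at −1.45 and −1.87 for R with isotype, and KLF2 at 0.76 and 1.00 for OF with isotype.

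S1PR1, an established target of KLF2, gave no call with either antibody in either line. In TMD8 it stood at 66.5 and 78.5 CPM with isotype, 80.2 and 79.3 with R, and 92.4 and 92.1 with OF. The OF libraries were the highest here too, 0.35 ± 0.15 above isotype on the log2 scale (adjusted p = 0.36), and R gave 0.14 ± 0.15. In U2932, at 7.93 to 10.95 CPM, the changes were −0.27 with R and −0.28 with OF (adjusted p = 0.196 and 0.176). S1PR2 in TMD8 stood at 13.6 and 20.6 CPM with R against 21.4 and 30.1 with isotype. R gave −0.59 ± 0.28 (adjusted p = 0.365), which was called with culture as a block (adjusted p = 0.0322), and −0.33 without the 2 libraries that stood apart. OF gave −0.10 in TMD8, and in U2932 R gave 0.02 and OF 0.11.

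CXCR5, the follicle-homing receptor for CXCL13, showed the largest difference from isotype of the members tested. In TMD8 it stood at 74.1 and 105 CPM with isotype, at 27.04 and 28.6 with R, and at 37.8 and 43.1 with OF. The groups did not overlap, and both R libraries lay below both OF libraries. CXCR5 fell with R by 1.68 on the log2 scale (SE 0.20, adjusted p = 0.0697). With OF it fell by 1.14 (SE 0.20, adjusted p = 0.0966). It was the only member called in each of these comparisons, where 0.647% and 0.815% of all genes were called. It was lower in both cultures, at −1.45 and −1.87 with R and at −0.97 and −1.28 with OF. Without the 2 libraries that stood apart it was −1.42 and −0.98. DESeq2 called both (adjusted p = 3.22e-08 and 0.00095). The R call was lost without either R library, at values of −1.64 and −1.70. The OF call was lost without any 1 of 5 of the 6 TMD8 libraries (−1.05 to −1.34), isotype replicate 2 being the exception (−0.88). Such fits leave a condition with 1 library, so these losses are not read as a change in CXCR5 itself.

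R with OF gave −0.54 ± 0.20 for CXCR5 in TMD8 (unadjusted p = 0.0306, adjusted p = 0.733). BCL9L, which overlaps CXCR5 on the other strand, had 163 and 819 counts with isotype, 123 and 148 with R, and 133 and 297 with OF, against 1298 and 2950, 416 and 460, and 551 and 669 for CXCR5. Its log2 fold changes in TMD8 were −1.15 with R and −0.44 with OF (adjusted p = 0.365 and 0.782), and its part in the CXCR5 counts was not tested. In U2932, CXCR5 stood at 467 and 421 CPM with isotype, 360 and 357 with R, and 381 and 405 with OF. R gave −0.31 ± 0.08 (adjusted p = 0.00638), past the limit on p but not on fold, and OF gave −0.17 ± 0.08 (adjusted p = 0.128).

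CCR7, the receptor for CCL19 and CCL21 of the T cell zone, had differences from isotype of opposite sign in the 2 lines, none of them called. In TMD8 it stood at 41.0 and 60.5 CPM with isotype, 27.8 and 31.0 with R, and 26.6 and 30.6 with OF. All 4 antibody libraries lay below both isotype libraries. The log2 fold changes were −0.78 ± 0.21 with R and −0.82 ± 0.21 with OF (adjusted p = 0.166 and 0.169), and culture as a block called both (adjusted p = 0.0169 and 0.0167). Without the 2 libraries that stood apart they were −0.49 and −0.63. In U2932, at 14.9 and 14.2 CPM with isotype, CCR7 was at 17.3 and 18.8 with R and at 18.4 and 19.7 with OF. The changes of 0.31 ± 0.12 and 0.39 ± 0.12 (adjusted p = 0.0552 and 0.0156) passed the limit on p and stayed under 1.5-fold.

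CXCR4, the receptor for CXCL12, stood at 276 and 218 CPM with isotype in TMD8, 354 and 385 with R, and 317 and 230 with OF. Both R libraries were above the other 4, at a log2 fold change of 0.59 ± 0.23 (adjusted p = 0.275) that was called with culture as a block (adjusted p = 0.0548), and OF overlapped with isotype. Without the 2 libraries that stood apart the R value was 0.41. In U2932 it stood at 159 and 171 CPM with isotype, 135 and 146 with R, and 153 and 147 with OF. R gave −0.23 ± 0.09 (adjusted p = 0.051), under 1.5-fold.

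GPR183, the oxysterol receptor, was the one member called in U2932. It stood at 9.30 and 8.89 CPM with isotype, 12.2 and 15.6 with R, and 12.1 and 15.1 with OF. All 4 antibody libraries lay above both isotype libraries, and R and OF overlapped. GPR183 rose with R by 0.61 ± 0.15 (adjusted p = 0.00272), and the rise with OF was 0.59 ± 0.15 (adjusted p = 0.00397). Here 10.2% and 11.1% of all genes were called, against 1 of 7 members tested. The OF value sat on the fold limit, at 1.501-fold, and the call was lost with culture as a block (0.58, adjusted p = 0.000894) and with DESeq2 (0.58). Without R replicate 2 the R value was 0.43 (adjusted p = 0.0993), and without OF replicate 2 the OF value was 0.41 (adjusted p = 0.128), neither called. Without isotype replicate 2 both lay just under the fold limit (0.58 and 0.55). In the fit of all 12 libraries neither was called (adjusted p = 0.299 and 0.311).

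In TMD8, GPR183 stood at 85.7 and 52.6 CPM with isotype, 149 and 106 with R, and 129 and 78.6 with OF. Culture 1 was the higher in each condition. R gave 0.89 ± 0.34 (adjusted p = 0.277) and OF 0.59 ± 0.34 (adjusted p = 0.497), and the block for culture called both (adjusted p = 0.00664 and 0.0301). Without the 2 libraries that stood apart they were 0.56 and 0.58. P2RY8, a receptor coupled to Gα13 that confines B cells to germinal centres, stood at 113 and 178 CPM with isotype in TMD8, 79.8 and 95.8 with R, and 94.3 and 130 with OF. R gave −0.72 ± 0.26 (adjusted p = 0.257), called with the block (adjusted p = 0.0195), and −0.38 without those 2 libraries. In U2932 its changes were 0.07 with R and 0.19 with OF (adjusted p = 0.632 and 0.113).

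**Figure D3:**
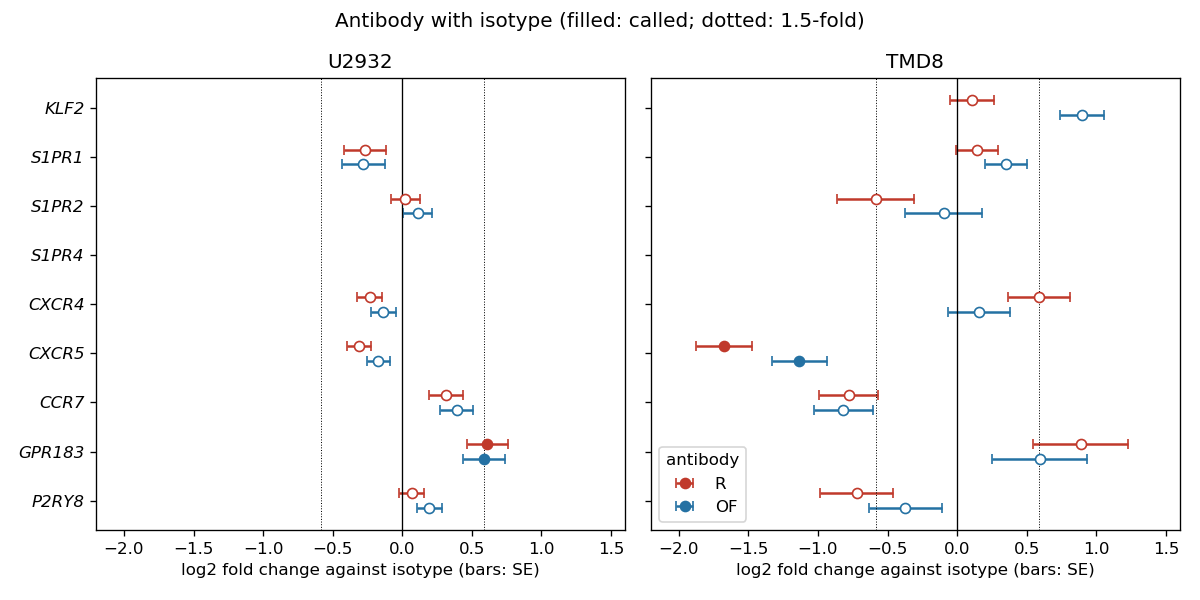
Log2 fold change against isotype (horizontal axis; bars, SE of edgeR's fit) for R and OF in U2932 and TMD8. Filled points were called, dotted lines mark 1.5-fold, and genes without a point were not tested. Only GPR183 in U2932 and CXCR5 in TMD8 are filled.

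With culture as a block, 6 of 8 members were called for R in TMD8 (CXCR5, CCR7, P2RY8 and S1PR2 lower, GPR183 and CXCR4 higher), and 4 of 8 for OF (CXCR5 and CCR7 lower, KLF2 and GPR183 higher). That fit called 11% of all genes for R (5.04% higher, 5.96% lower) and 9.75% for OF (5.17% higher, 4.58% lower). That block places R replicate 2 with OF and isotype replicate 2, the 2 libraries that stood apart, and what it takes up was not tested. The 2 antibody comparisons share the isotype libraries, so the values with R and with OF are not independent of each other.

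Whether the 2 cell lines responded differently was tested as the interaction between cell line and antibody over all 12 libraries. CXCR5 was called for R, with a response 1.38 ± 0.23 higher on the log2 scale in U2932 than in TMD8 (adjusted p = 0.0511, 0.321% of all genes called). The responses set against each other were −0.31 in U2932 and −1.68 in TMD8. The difference was 1.10 without the 2 libraries that stood apart. The call was lost without any 1 of the 6 U2932 libraries or either TMD8 R library, at values of 1.30 to 1.45. Those fits leave a condition with 1 library, so the loss is not read as a change in CXCR5 itself. The OF response differed by 0.97 ± 0.23 (adjusted p = 0.205). CCR7 gave 1.10 ± 0.25 for R and 1.21 ± 0.25 for OF (adjusted p = 0.148 and 0.164), from responses of opposite sign. CXCR4 gave −0.81 ± 0.23 for R (adjusted p = 0.218).

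For OF, 0 of 8 members were called by edgeR, where 0.105% of all genes were. KLF2 is among the 8, but its counts in U2932 are too few to give a response there. At edgeR's unadjusted p under 0.05, 3 members passed (S1PR1, CXCR5 and CCR7), beside 1369 of all 16187 genes tested. DESeq2 called 2 members and 1.38% of all genes. With a block for the culture of each line, 5 members were called for R (CXCR5, CCR7, CXCR4, P2RY8 and S1PR2) and 2 for OF (CXCR5 and CCR7), where 4.76% and 2.19% of all genes were. Without the 2 TMD8 libraries that stood apart, these 5 values for R were 1.10, 0.79, −0.65, 0.44 and 0.34, and the 2 for OF were 0.80 and 1.01. GPR183 was not called for a difference between the lines, at −0.27 (95% interval −1.16 to 0.62) for R and −0.01 (−0.93 to 0.92) for OF, and both intervals were wide enough to hold a 1.5-fold difference.

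**Figure D4:**
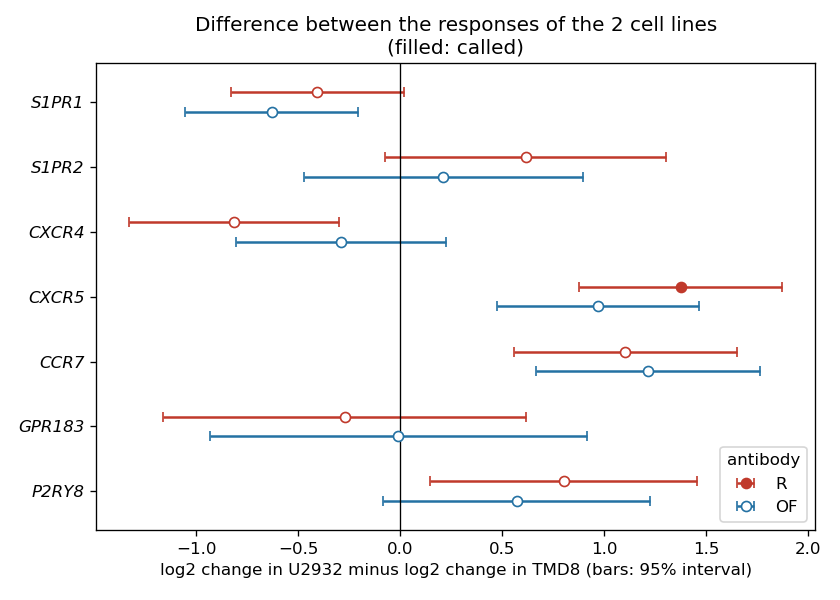
Log2 change in U2932 minus log2 change in TMD8 (horizontal axis; bars, 95% interval of edgeR's fit over 12 libraries) for R and OF in the 7 genes with enough counts in both lines. CXCR5 for R is the one filled, called point, at 1.38. The intervals of CCR7 for both antibodies, CXCR5 for OF and P2RY8 for R also lie above 0. Those of CXCR4 for R and S1PR1 for OF lie below 0.

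Genes around the 9 members were described from lists of the same pathways. With R and OF, 10.2% and 11.1% of all genes were called in U2932, and 0.647% and 0.815% in TMD8. Beside these shares, no count of called genes below is read as a result about its list. Of enzymes that make or break down S1P, 0 of 6 tested in U2932 and 0 of 7 in TMD8 were called with either antibody, and its transporters SPNS2 and MFSD2B had too few counts for a test. Of 22 other S1P and chemokine receptors, 4 were tested in U2932 and 5 in TMD8. CCR4 fell in U2932, from 69 and 90 counts with isotype to 32 and 31 with R and 32 and 31 with OF (log2 fold change −1.03 and −0.96, adjusted p = 0.00362 and 0.0063). ACKR4, a scavenger of CCL19 and CCL21, rose there with OF (0.80, adjusted p = 0.0705). CCR1, a receptor for inflammatory chemokines, rose in TMD8, from 24 and 39 counts with isotype to 91 and 98 with R and 73 and 75 with OF (2.13 and 1.84, adjusted p = 0.0697 and 0.0851, and 2.12 and 1.85 without the 2 libraries that stood apart). CCR1 had no count in any U2932 library.

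Of 19 genes for coupling and desensitization of these receptors, 17 were tested in each line. RAC2, a GTPase of lymphocyte migration, and PTK2B, a kinase of the focal adhesion family, rose in U2932 with both antibodies (0.59 to 0.69). They were 2 of 17 genes, near the 10.2% and 11.1% of all genes called there with R and OF. In TMD8, GRK6, a kinase that desensitizes receptors, rose with OF (1.30, adjusted p = 0.0935, and 1.35 without the 2 libraries), 1 of 17, and 0 of 17 were called with R. Medians were 0.24 and 0.21 in U2932 and 0.11 and 0.17 in TMD8 for R and OF, beside −0.02 to 0.01 over all genes tested.

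Of 11 adhesion molecules and known outputs of KLF2, ITGB7, a subunit of a gut-homing integrin, and CDKN1A, a cell cycle inhibitor, rose in U2932 with R (0.62 and 0.79) and OF (0.72 and 0.73). ITGA4, the α4 integrin subunit, rose in TMD8 with R and OF (1.16 and 1.01, adjusted p = 0.0803 and 0.095), and ITGB1, its β1 partner, with R (1.06, adjusted p = 0.0801). Without the 2 libraries that stood apart, ITGA4 gave 1.20 and 0.90 and ITGB1 0.98. The ITGB1 response to R differed between the lines by −1.03 (adjusted p = 0.0511), and by −0.97 without the 2 libraries. Medians over the 11 genes were 0.29 and 0.41 in U2932 and 0.24 and 0.58 in TMD8 for R and OF.

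Of 11 KLF family genes tested in each line, 0 were called in U2932. KLF6, an early response gene of the family, rose in TMD8 with OF, from 66.8 and 71.6 CPM with isotype to 160 and 150 CPM (1.17, adjusted p = 0.0851, and 1.25 without the 2 libraries that stood apart), and with R it stood at 132 and 114 CPM, which was not called. KLF6 responses differed between the lines by −1.03 for R and −1.27 for OF (adjusted p = 0.052 and 0.027), and by −1.08 and −1.36 without the 2 libraries. Of 15 regulators of KLF2, FOXO3, a forkhead factor, fell in U2932 with R and OF (−0.88 and −0.85), from 22.4 and 21.0 CPM with isotype to 11.5 to 12.5 CPM, and 0 of 15 were called in TMD8. Of ligands and their enzymes, 0 of 2 tested in U2932 and 0 of 3 in TMD8 were called. No gene of these lists was called between R and OF in either line. Apart from ITGB1 and KLF6 none was called for a difference between the lines' responses, where 0.321% of all genes were for R and 0.105% for OF.

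Between the lines under isotype, the same lists differed widely, as did 56.1% of all genes. All 7 S1P enzymes tested were called, 3 higher and 4 lower in U2932, SGPL1, the S1P lyase, by −2.33 (adjusted p = 2.34e-07) and SGPP2, an S1P phosphatase, by 1.31 (adjusted p = 1.93e-05). Of 12 KLF genes, 5 were higher and 6 lower in U2932. KLF15 had 442 and 401 counts in U2932 and none in TMD8, so it passed the filter through U2932 alone. KLF10 was higher by 2.86, and KLF8 was lower by −4.99. Of 8 other receptors, 2 were higher and 3 lower, of 17 coupling genes 2 and 5, of 15 regulators of KLF2 7 and 3, and of 3 ligands and enzymes 0 and 2. Among 11 adhesion molecules and outputs, 3 were higher and 5 lower in U2932. The hyaluronan receptor CD44 was lower by −3.19 (adjusted p = 9.53e-09). CD69, which pulls S1PR1 from the cell surface, was higher by 2.04 (adjusted p = 4.75e-06). CXCL13, the ligand of CXCR5, had 4 and 11 counts in U2932 against 452 and 300 in TMD8.

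The genes most like KLF2 were sought among 12722 genes, by Pearson correlation of log2 CPM over the 12 libraries after taking off each line's mean. They were SNORA73B (r = 0.86), PITRM1-AS1 (0.85), TNRC6C-AS1 (0.84), CAMKK1 (0.83) and B4GALNT3 (0.83). KLF2 had 0 to 4 counts in U2932, so the likeness rests mainly on the 6 TMD8 libraries, which share 2 cultures. Over those 6 alone, chosen after the values were seen, the highest value was that of FAAP20 (r = 0.99). None of the other 8 members was among the 5 in either ranking.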

How the data were processed

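Raw counts of reads per gene, without normalization or filter, were deposited by the authors for 12 libraries of 2 cell lines and 3 antibodies. Submitters' processing notes name Trim Galore 0.6.0, STAR 2.7.0e and GRCh38. The annotation release and strand setting are not given in the sources used here. Symbols, positions and G and C content came from GENCODE 29, which matched 58611 of 58884 genes. Promoter sequences came from RefSeq (GRCh38.p14).

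The tools were edgeR 4.0.16 in R 4.3.3. After TMM normalization, the filterByExpr filter (minimum 10 counts) left 14635 genes in U2932, 14227 in TMD8 and 16187 over both lines. Each line's 6 libraries were fitted together for the antibody comparisons, and all 12 for the comparison of lines and the interactions. P-values are from quasi-likelihood tests, adjusted over all genes tested by the Benjamini-Hochberg method. Genes were called at an adjusted p under 0.10 (0.30 for R with OF in U2932) and at least 1.5-fold. Log2 CPM used a prior count of 2. Counting intervals cover counting error only, and at this depth 3 counts were 0.106 to 0.206 CPM.

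The labels give the 2 replicates of a line as separately kept cultures. No label ties a replicate number to a culture, so the number was taken to mark it, and culture was also fitted as a block. Deviations of same-numbered libraries correlated at −0.04 to 0.10 in U2932. In TMD8 they correlated at 0.18 for R and OF, at 0.18 for R and isotype, and at 0.58 for OF and isotype. The last pair holds the 2 replicate 2 libraries that stood apart, and R replicate 2, at 10.0% of counts on ribosomal protein genes, did not. Whether the block in TMD8 takes up culture or the shift of those 2 libraries was not tested. Replicates differed beyond counting error (chi-square per degree of freedom 2.42 to 108).

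Alternatives were DESeq2 1.42.0, other normalizations, filters and limits, a G and C content correction (lowess, span 0.3), other sets of libraries and fits without each library. Leaving out OF and isotype replicate 2 of TMD8 was added after the data were seen. Steps were tested on simulated data. Figures were drawn with matplotlib 3.10.9. Genes named are the 9 members, MS4A1, the 5 genes most like KLF2 and up to 5 called genes of a list with the smallest adjusted p, of which 1 gene is not reported here. BCL9L, DNMT1 and UBAC2, which overlap members, and FAAP20 were named after their values were seen. Members and lists were chosen with earlier results of these data known.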

Additional observations from a re-analysis of the deposited data

Results flagged for a closer look

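The response of CXCR5 to R was called as different between the cell lines by the test of the difference itself. Its value was 1.38 on the log2 scale for U2932 less TMD8 (edgeR's quasi-likelihood interaction test, adjusted p = 0.0511). The call was lost at a limit of 0.05 and, as given above, without any 1 of several libraries, which leaves a condition with 1 library. BCL9L, which overlaps CXCR5 on the other strand, gave 0.80 ± 0.62 in the same test (adjusted p = 0.658), and its part was not tested. In each line, both R libraries lay below both isotype libraries. Paired by replicate number, which was only assumed to mark the culture, the log2 ratios were −0.38 and −0.24 in U2932 and −1.45 and −1.87 in TMD8.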

How the results depend on the processing

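Of 1444 gene-level values under alternatives, 1277 kept their direction and their side of the limits, 86 were newly called, 36 lost a call and 45 changed sign, none of the 45 from a called value. Where no library was left out, the comparison of the lines had 5 to 7 calls among members. The share of all genes called there ran from 32.9% with no filter to 56.4% with the G and C correction. R with OF in U2932 had 0 members called. The cause of the changes below was not tested, except where a limit was made stricter or dropped. Scaling by total counts shifted the median of all genes under R to −0.12 in U2932 and −0.16 in TMD8. With 2 cultures a condition, replicate error is known poorly. Where a library is left out, the lone library of its condition is assumed to vary like the others, and the totals above include such fits.

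Calls among members for R with isotype in U2932 were 4 with no fold limit, and 0 with total counts (11.4% of all genes called) or all 12 libraries (4.94%). For OF with isotype in U2932 they were 2 with no fold limit, and 0 with DESeq2, its size factors, upper quartiles, total counts, no filter, 10 counts in every library, all 12 libraries, only the 4 libraries compared or the replicate block. In the fits with 0, the share of all genes called ran from 5.58% with all 12 libraries to 11.4% with the block. For R with isotype in TMD8 they were 0 at an adjusted p under 0.05, 2 with DESeq2, 4 with no filter, 4 with all 12 libraries, 6 with the replicate block and 3 with the block and G and C correction. For OF with isotype in TMD8 they were 0 at an adjusted p under 0.05, with upper quartiles, total counts or only the 4 libraries. They were 2 with DESeq2's size factors, 10 counts in every library or the G and C correction. With DESeq2, no filter or all 12 libraries they were 3, and with the block, with or without that correction, 4. R with OF in TMD8 gave 0 with the block. The R interaction had 0 at an adjusted p under 0.05, 3 with DESeq2, no filter or the block with G and C correction, and 5 with the block. The OF interaction had 2 with DESeq2, no filter, the G and C correction or the block, and 3 with that correction and the block together. Beside these counts stand the shares of all genes called, which were not counted with no fold limit or at an adjusted p under 0.05. For R in TMD8 they were 0.647% in the main analysis, 4.93% with DESeq2, 4.05% with no filter, 8.4% with all 12 libraries, 11% with the block and 9.76% with the block and correction. For OF in TMD8 they were 0.815%, 4.15%, 3.37%, 7.23%, 9.75% and 9.57% in the same order, and 3.09% with the correction alone. OF in TMD8 also had 0.865% with DESeq2's size factors, 1.21% with 10 counts in every library and 0.78% with upper quartiles. It had 0.176% with total counts and 0% with only the 4 libraries. For the R and OF interactions the shares were 2.77% and 1.38% with DESeq2, and 0.843% and 0.544% with no filter. They were 2.51% and 2.53% with the block and correction, and 0.476% for OF with the correction alone. No call is read from the fit without the 2 TMD8 libraries. Fits without 1 library at a time leave a condition with 1 library, so counts of members called are not given for them.

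KLF2 had too few counts in U2932 for its values in the OF interaction to be read as a response. Sign changes, all from values not called, were these on the log2 scale. With total counts, S1PR2 (−0.080) and P2RY8 (−0.031) with R in U2932, S1PR1 for R with OF in U2932 (−0.010), KLF2 with R in TMD8 (−0.028) and CCR7 for R with OF in TMD8 (−0.031). With no filter, S1PR2 with R in U2932 (−0.0069). With the G and C correction, and with the block added, S1PR2 in U2932 with R (−0.033 and −0.035) and OF (−0.018 and −0.018), GPR183 for R with OF in U2932 (−0.023 and −0.024) and the GPR183 OF interaction (0.026 and 0.027). P2RY8 between the lines became 0.041 with upper quartiles, 0.086 with total counts, 0.0064 with 10 counts in every library, 0.13 with the G and C correction and 0.33 without the 2 TMD8 libraries, which also gave 0.040 for GPR183 in the R interaction and −0.020 for it between R and OF in TMD8. Ranges without 1 library at a time crossed 0 for S1PR2 (−0.071 to 0.11) and P2RY8 (−0.028 to 0.16) with R in U2932, S1PR1 (−0.040 to 0.061) and GPR183 (−0.16 to 0.19) for R with OF in U2932, S1PR2 (−0.34 to 0.16) and CXCR4 (−0.10 to 0.38) with OF in TMD8, CCR7 (−0.044 to 0.14) and GPR183 (−0.023 to 0.71) for R with OF in TMD8, P2RY8 between the lines (−0.32 to 0.33), GPR183 in the R interaction (−0.67 to 0.042), and KLF2 (−3.83 to 1.49), S1PR2 (−0.054 to 0.48) and GPR183 (−0.40 to 0.39) in the OF interaction.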
